A study of Arabidopsis thaliana with 24 samples.

Results

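The Arabidopsis thaliana mitochondrial genome was followed through every row of the deposited gene table whose identifier starts with ATMG and that holds read counts. The table lists 146 rows with such an identifier, and 79 of them have values, out of 32328 genes with values in the whole table. Seedlings in the Columbia background received 3 h of white light and then darkness for 3 days, all at 22 °C. Before harvest they were moved to 37 °C for 3 h or left at 22 °C, and polyA RNA was sequenced from whole seedlings. The 4 groups described are pif4 at 37 °C, pif4 at 22 °C, WT at 37 °C and WT at 22 °C, with 3 libraries each, where pif4 stands for seedlings whose label gives the genotype pif4-101, a single mutant allele of the light and temperature signalling factor PIF4. No label ties the letters a, b and c of the libraries to replicate numbers or to separate sowings, so p-values measure only the spread between these libraries.

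Mitochondria of plants keep a small genome that encodes some subunits of the respiratory chain and of ATP synthase, proteins that mature c-type cytochromes, part of the mitochondrial ribosome with its rRNAs, and tRNAs. All other respiratory subunits are encoded in the nucleus and imported. In plant mitochondria a poly(A) tail marks an RNA for degradation, unlike the tail of a cytosolic mRNA, so a polyA library holds a selection of mitochondrial RNA and not its full amount. In Columbia, chromosome 2 carries a large, nearly identical copy of the mitochondrial genome, and reads from the copy and from the organelle cannot always be told apart.

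Values by role show which genes the table can describe. For Complex I, the NADH dehydrogenase, 11 of 14 rows have values, for Complex IV, cytochrome c oxidase, 3 of 3, and for ATP synthase 5 of 6. Cytochrome c maturation has 4 of 5, ribosomal proteins 3 of 7 and rRNA 3 of 3. The single Complex III row, cob (cytochrome b), has no value. The maturase gene matR and the transporter gene mttB both have values. Of 21 tRNA rows, 4 have values, all at 0 reads, and of 84 open reading frames (ORFs) of unknown role, 44 have values.

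Rows without values were, among genes that have 1 row and a symbol, genes repeated on chromosome 2. In the reference genome TAIR10.1, windows of 50 bases were taken from each annotated gene, and a window was called unique when it occurred once in the genome. Of these genes, 14 had no unique window, and 6 of those 14 had values, among them cox3, atp1, atp9 and nad4. The 8 genes with some but under 90% unique windows and the 9 genes with at least 90% all had values. Those 9 are cox1, nad4L, nad9, atp4, ccmB, rps3, rrn18, rrn26 and rrn5, and their reads are the least open to mixing with the nuclear copy. For the other genes a read may come from either genome, and the share that does was not tested.

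Of the 79 genes with values, 18 had 0 reads in all 12 libraries, 22 had reads but were too low to test (at most 58 reads over the 12 libraries) and 39 were tested. The filter needed about 1.24 CPM by library size alone, before further scaling, in enough libraries of a group, and 24 of the 39 reached that level in every library at 22 °C. All other CPM values are scaled by TMM, edgeR's trimmed mean of M-values. The rest did not, and a gene that passed only through the hot libraries had to be higher there, so counts over the tested genes describe them and no more.

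Library depth was 5940624, 10662414 and 8513237 reads in pif4 at 37 °C, 3176106, 5520157 and 11099980 in pif4 at 22 °C, 3360759, 7812417 and 8263355 in WT at 37 °C, and 3234886, 13807880 and 14791597 in WT at 22 °C (libraries a, b and c in turn). In each group the library lettered a had the lowest depth and the highest share of mitochondrion-encoded reads. PIF4 itself read 21.6, 22.0 and 22.6 CPM in pif4 at 37 °C, 17.2, 24.0 and 11.2 in pif4 at 22 °C, 22.1, 33.3 and 30.9 in WT at 37 °C and 7.81, 13.3 and 8.87 in WT at 22 °C. The log2 difference of pif4 over WT was -0.40 at 37 °C and 0.76 at 22 °C (edgeR adjusted p = 0.681 and 0.809). A count for a whole gene does not show which stretch was read, so these values cannot check the pif4 label, and every direction given for pif4 rests on that label. Of 10 tissue markers, 1 rose and 3 fell with heat in pif4, and 1 rose and 4 fell in WT. Their summed level was 1144 to 1460 CPM in pif4 at 37 °C against 1276 to 1419 in pif4 at 22 °C; WT libraries had 747 to 892 CPM at 37 °C against 995 to 1198 CPM at 22 °C. VGD1, a pollen gene, had 0 reads in every library. The part of tissue make-up in the results below was not tested.

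Mitochondrion-encoded genes took 2.89%, 2.38% and 2.00% of all reads in pif4 at 37 °C, and 4.01%, 2.41% and 2.33% in pif4 at 22 °C. They took 3.60%, 2.93% and 3.00% in WT at 37 °C, and 4.08%, 3.11% and 2.33% in WT at 22 °C. The ranges of 37 °C and 22 °C overlapped in both genotypes. At 37 °C pif4 and WT did not overlap, by a narrow margin (2.89% against 2.93%). With other genes above 1% of a library left out of the total, they did overlap at 37 °C. Library a of pif4 then held 3.58% and library b of WT 3.56%. The means were 2.42% ± 0.445 in pif4 at 37 °C, 2.92% ± 0.947 in pif4 at 22 °C, 3.18% ± 0.366 in WT at 37 °C and 3.17% ± 0.878 in WT at 22 °C (SD, n = 3 each). In polyA libraries of whole seedlings several readings of a lower share cannot be told apart. Among them are more reads from other genes, fewer mitochondria, fewer cells that hold many of them, less RNA per mitochondrion and a smaller part of that RNA with a poly(A) tail.

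The make-up of these reads differed with temperature. The large and small ribosomal RNAs, rrn26 and rrn18, dominated every library. rrn18 made up 77.4%, 76.1% and 72.3% of the mitochondrion-encoded reads in pif4 at 37 °C, against 65.8%, 68.4% and 67.9% in pif4 at 22 °C. It made up 76.3%, 77.2% and 74.6% in WT at 37 °C, against 61.6%, 65.2% and 65.8% in WT at 22 °C. All hot libraries thus held more rrn18 than the 22 °C libraries. rrn26 went the other way, with 16.3%, 16.9% and 21.1% in pif4 at 37 °C, against 28.2%, 26.5% and 27.5% in pif4 at 22 °C. In WT it held 17.2%, 15.9% and 19.1% at 37 °C, against 31.2%, 30.2% and 29.4% at 22 °C. The groups of the 2 temperatures did not overlap for either rRNA.

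The ratio of rrn18 to rrn26 reads needs no scaling between libraries. It averaged 4.22 ± 0.703 in pif4 at 37 °C and 2.46 ± 0.126 in pif4 at 22 °C, and 4.40 ± 0.473 in WT at 37 °C and 2.12 ± 0.139 in WT at 22 °C (SD, n = 3 each). No 37 °C library overlapped a 22 °C library of its genotype, with an exact two-sided permutation p of 0.1 in each genotype, which is the smallest that 3 against 3 libraries allow. Between pif4 and WT at 37 °C the ratio did not differ beyond the spread (exact permutation p = 0.7), and at 22 °C the pif4 libraries lay above the WT libraries (exact permutation p = 0.1, the smallest possible). Both rRNA genes have at least 90% unique windows.

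The protein-coding genes other than cox1, with ORFs of unknown role not counted, made up a small part of the mitochondrion-encoded reads, and a larger one at 37 °C. Their share was 1.66% ± 0.113 in pif4 at 37 °C against 0.796% ± 0.106 in pif4 at 22 °C, and 1.63% ± 0.150 in WT at 37 °C against 0.790% ± 0.196 in WT at 22 °C (SD, n = 3 each). The lowest 37 °C library held 1.53% and the highest 22 °C library 1.01%, both in WT and both lettered a. With cox1 included, the temperatures overlapped in WT, with 3.84% to 5.23% at 37 °C against 3.19% to 4.47% at 22 °C. In pif4 they did not, with 4.26% to 5.13% against 3.09% to 3.71%. All reads outside the rRNA genes also overlapped in WT, at 6.24% to 6.90% against 4.54% to 7.15%. In pif4 these were apart, at 6.22% to 6.98% against 4.57% to 6.01%.

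**Figure D1:**
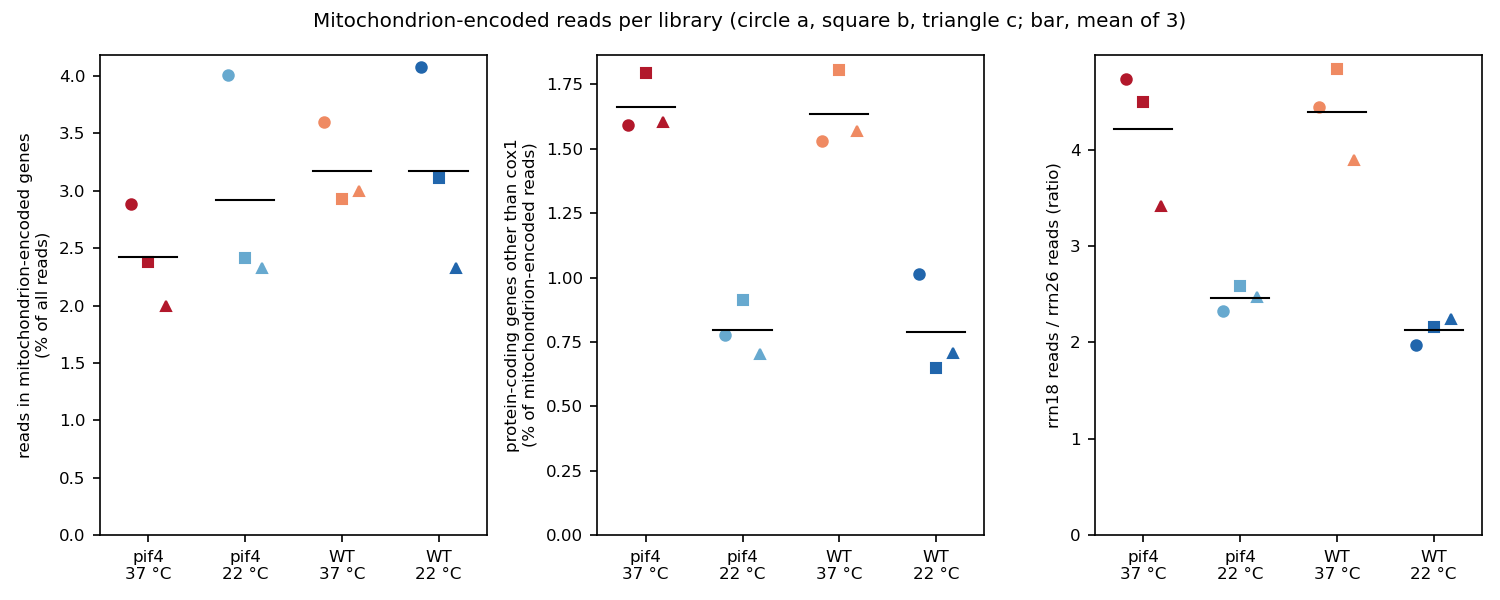
Share of reads in mitochondrion-encoded genes (left, % of all reads), share of those reads in protein-coding genes other than cox1 (middle, %) and ratio of rrn18 to rrn26 reads (right) for each library of pif4 and WT at 37 °C and 22 °C. Points are libraries and bars are means of 3. The total share overlaps between temperatures, while the 37 °C libraries lie above the 22 °C libraries in the other panels (ratio 3.42 to 4.84 at 37 °C, 1.97 to 2.58 at 22 °C). The middle panel also leaves out ORFs of unknown role, and with cox1 included the WT temperatures overlapped.

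Gene by gene, most tested mitochondrion-encoded genes were higher at 37 °C in both genotypes, with more calls under TMM than under total counts, where rrn26 fell. With edgeR's quasi-likelihood test and Benjamini-Hochberg adjustment over 18774 genes, 33 of 39 genes rose in pif4 and 35 of 39 in WT at an adjusted p below 0.05, and 0 fell, while with total counts in place of TMM scaling 21 rose and 1 fell in pif4, and 24 rose and 1 fell in WT. Over all tested genes, 25.6% rose and 24.1% fell in pif4, and 25.5% rose and 26% fell in WT; in either direction these were 49.7% and 51.5%. With total counts 9.35% rose and 62% fell in pif4, and 9.51% rose and 62% fell in WT. The median log2 change of the 39 genes was 2.23 in pif4 and 2.50 in WT, beside -0.10 and -0.12 over all tested genes. Total counts lowered the median of all genes by 1.03 in pif4 and 1.02 in WT on the log2 scale. The gap between the median of the 39 genes and that of all genes was 2.33 in pif4 and 2.62 in WT with TMM, and 2.35 and 2.61 with total counts.

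The 24 genes that reached the filter level at 22 °C give a view that does not depend on passing through the hot libraries. Of these, 19 rose in pif4 and 20 in WT and 0 fell, and with total counts 11 rose and 1 fell in each genotype. The median log2 change of the 24 was 1.635 in pif4 and 1.927 in WT with TMM, and 0.61 and 0.91 with total counts. CPM groups that did not overlap, with 37 °C above, were found for 19 of the 24 genes in each genotype. The share over all tested genes was 29.1% in pif4 and 27.3% in WT. Over all 39 genes, a count that depends in part on the filter, they were found for 32 in pif4 and 33 in WT. Of the 9 genes with at least 90% unique windows, 7 rose in each genotype, and with total counts 3 rose and 1 fell in each.

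**Figure D2:**
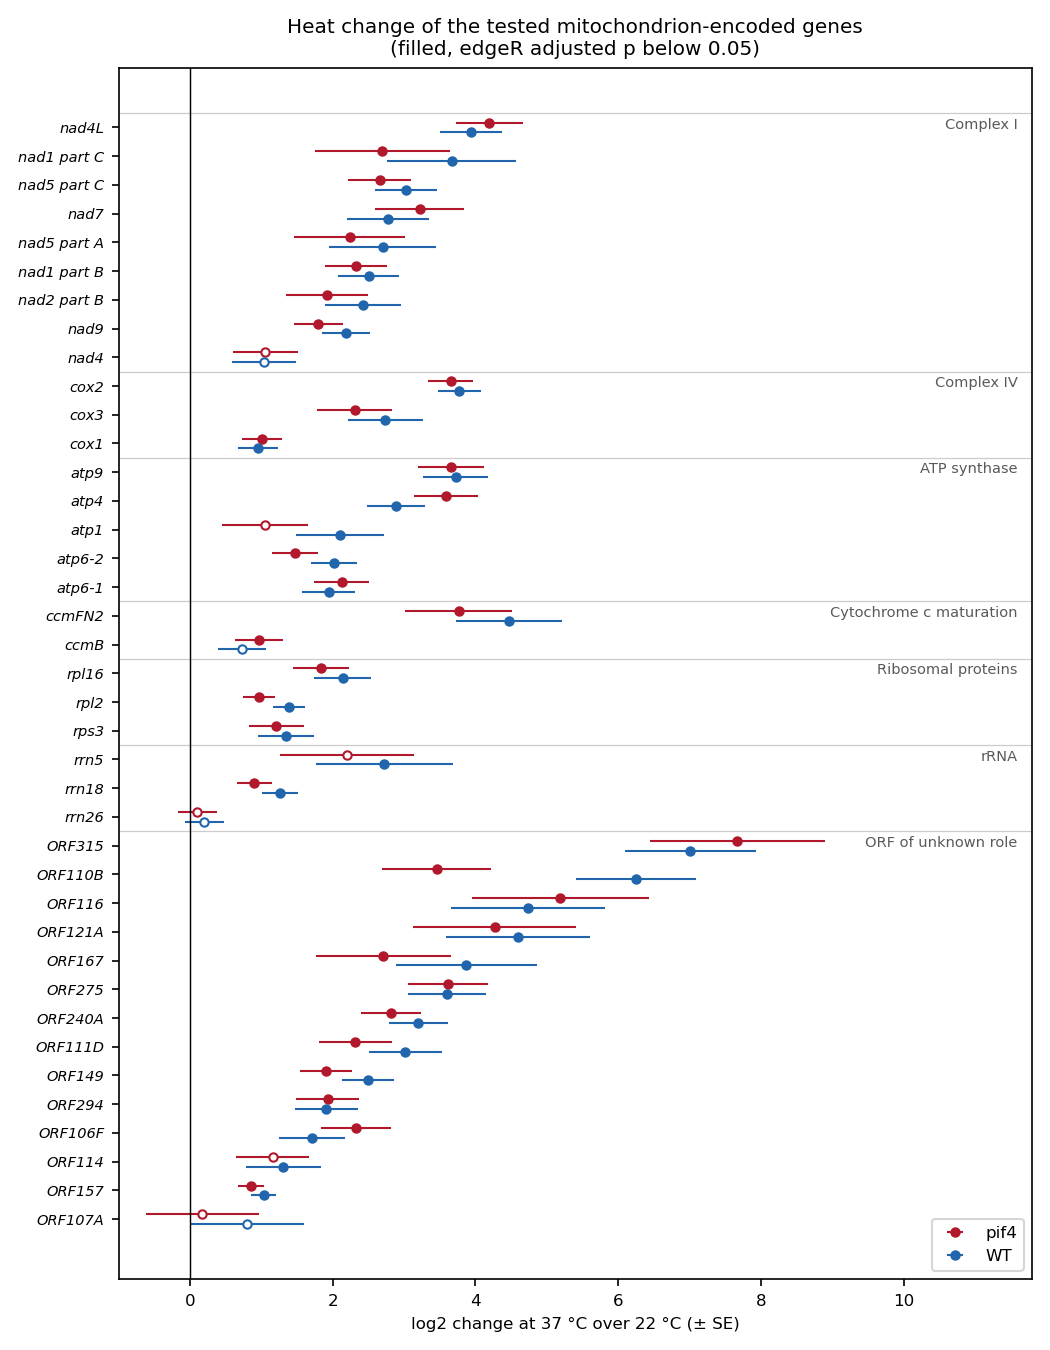
log2 change at 37 °C over 22 °C (x axis, ± SE, TMM scaling) of the 39 tested genes, by role, in pif4 (red) and WT (blue). Filled points have an edgeR adjusted p below 0.05. All estimates are above 0 with TMM; with total counts rrn26 fell (-0.90 in pif4, -0.81 in WT), and cox1, ccmB and ORF107A in WT and rrn18, ccmB, rpl2, ORF157 and ORF107A in pif4 turned negative. The pif4 value of ORF315 has 0 reads behind it at 22 °C, so its position depends on the prior count.

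Complex IV, which passes electrons to oxygen, was uneven between its own subunits. cox2, which encodes subunit 2, read 56.4, 61.8 and 45.3 CPM in pif4 at 37 °C against 5.57, 3.90 and 3.98 in pif4 at 22 °C, and 44.6, 77.1 and 88.1 in WT at 37 °C against 9.18, 3.92 and 4.21 in WT at 22 °C. Every 37 °C library lay above every 22 °C library. Of its windows, 74.2% are unique. The log2 change was 3.65 ± 0.31 in pif4 (edgeR adjusted p = 5.9e-09) and 3.77 ± 0.30 in WT (edgeR adjusted p = 2.4e-09). For log2 changes, ± gives an SE derived from the estimate and its F statistic. cox1, the catalytic subunit 1 and the most abundant protein-coding member, read 1097, 1133 and 911 CPM in pif4 at 37 °C against 714, 453 and 392 in pif4 at 22 °C. In WT it read 1185, 1366 and 1350 CPM at 37 °C against 1046, 548 and 426 at 22 °C. Within each genotype its groups did not overlap either, but the change was smaller: cox1 rose by 1.01 ± 0.28 in pif4 (edgeR adjusted p = 0.0077) and 0.95 ± 0.28 in WT (edgeR adjusted p = 0.0107) with TMM, against 0.01 and -0.04 with total counts. cox3, subunit 3, rose by 2.31 ± 0.53 in pif4 and 2.74 ± 0.53 in WT (edgeR adjusted p = 0.0024 and 6.4e-04), and by 3.60 in WT without library a of WT at 22 °C. All cox3 windows are shared with chromosome 2.

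Because cox1 has only unique windows, the other genes can be set against it within each library, with no scaling. For every 100 cox1 reads, cox2 had 5.19 ± 0.246 reads in pif4 at 37 °C against 0.885 ± 0.119 in pif4 at 22 °C, and 5.31 ± 1.41 in WT at 37 °C against 0.860 ± 0.137 in WT at 22 °C (SD, n = 3 each; exact permutation p = 0.1 in each genotype, the smallest possible). nad4L had 1.81 ± 0.291 in pif4 at 37 °C against 0.217 ± 0.0189 in pif4 at 22 °C, and 1.96 ± 0.301 in WT at 37 °C against 0.276 ± 0.104 in WT at 22 °C. atp4 had 1.71 ± 0.522 in pif4 at 37 °C against 0.318 ± 0.124 in pif4 at 22 °C, and 1.79 ± 0.293 in WT at 37 °C against 0.508 ± 0.101 in WT at 22 °C. These 3 genes therefore gained on cox1 in every 37 °C library. nad9 had 1.88 ± 0.247 in pif4 at 37 °C against 1.14 ± 0.0834 in pif4 at 22 °C, and 1.71 ± 0.182 in WT at 37 °C against 0.789 ± 0.136 in WT at 22 °C. rps3 overlapped between temperatures, with 14.3 ± 1.82 in pif4 at 37 °C against 12.3 ± 2.11 in pif4 at 22 °C and 13.1 ± 4.38 in WT at 37 °C against 9.93 ± 1.12 in WT at 22 °C (exact permutation p = 0.4 and 0.3). rrn26 moved in the opposite direction, with 596 ± 82.1 in pif4 at 37 °C against 1087 ± 136 in pif4 at 22 °C, and 613 ± 139.8 in WT at 37 °C against 1060 ± 144 in WT at 22 °C (exact permutation p = 0.1 in each). ccmB was also lower against cox1 in WT, with 1.39 ± 0.114 at 37 °C against 1.67 ± 0.145 at 22 °C (exact permutation p = 0.1), and overlapped in pif4, with 1.58 ± 0.361 at 37 °C against 1.76 ± 0.406 at 22 °C (exact permutation p = 0.5). For rrn18 the groups did not differ beyond the spread (exact permutation p = 0.6 in pif4 and 0.5 in WT).

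**Figure D3:**
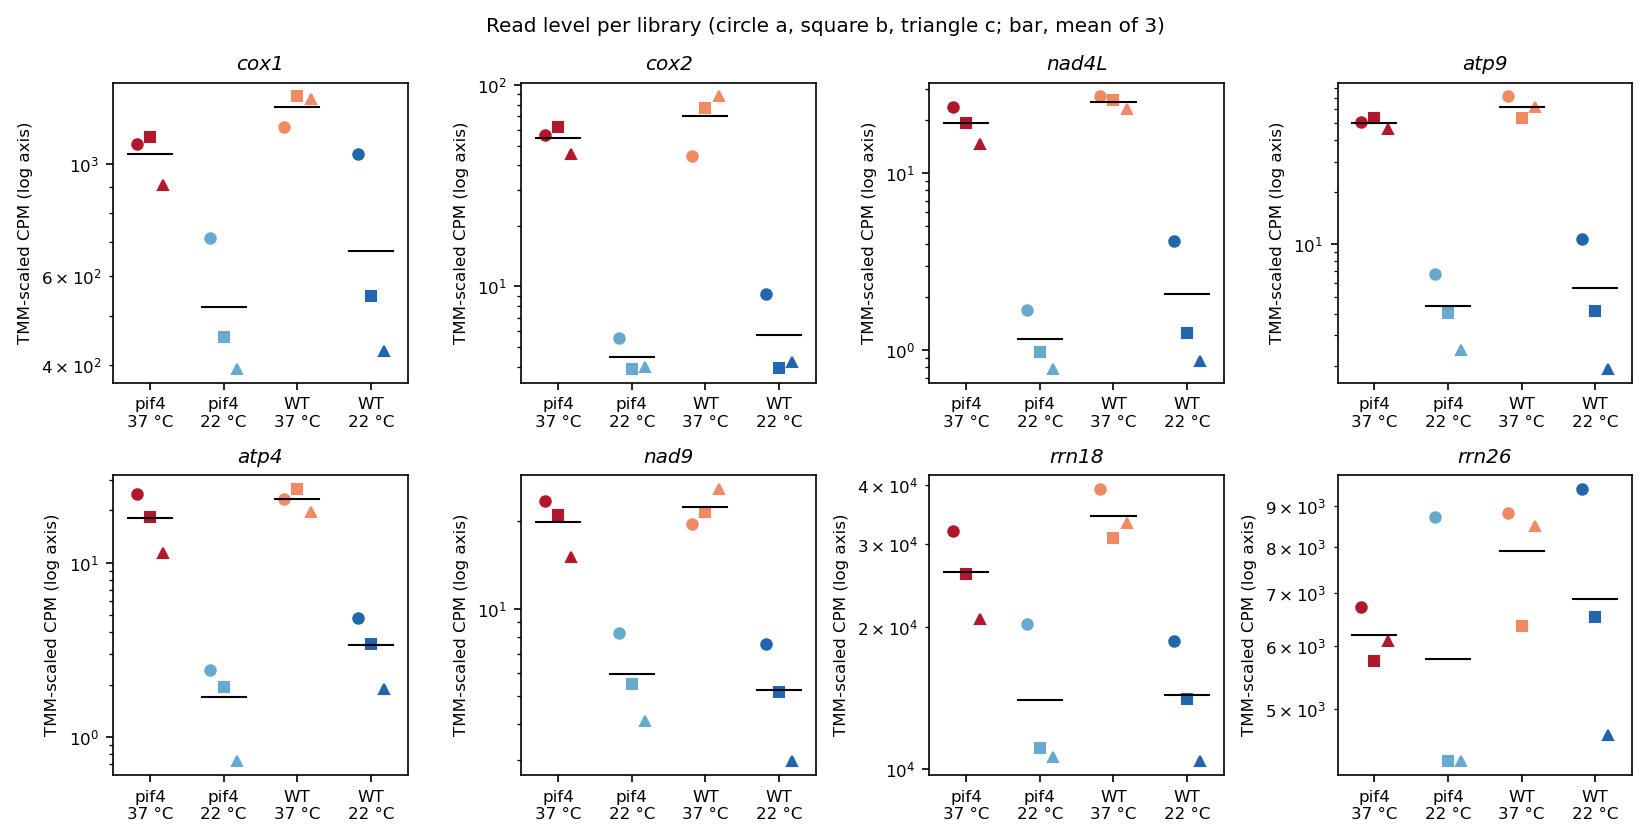
TMM-scaled CPM (log axis) in each library for cox1, cox2, nad4L, atp9, atp4, nad9, rrn18 and rrn26, in pif4 and WT at 37 °C and 22 °C; points are libraries and bars are means of 3. Within each genotype the 37 °C and 22 °C libraries are apart in every panel but rrn26, in which they overlap; library a is the highest of each 22 °C group. With total counts in place of TMM, rrn26 fell in both genotypes, rrn18 turned to -0.10 in pif4 and cox1 to -0.04 in WT.

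Complex I, the entry point of electrons from NADH, rose in 8 of its 9 tested rows in both genotypes with TMM, and in 5 in pif4 and 7 in WT with total counts. nad4L, a small membrane subunit with only unique windows, had 98, 144 and 86 reads in pif4 at 37 °C against 7, 8 and 13 in pif4 at 22 °C, and 64, 148 and 129 in WT at 37 °C against 18, 25 and 19 in WT at 22 °C. In reads and in CPM the groups did not overlap, and the log2 change was 4.20 ± 0.46 in pif4 and 3.94 ± 0.43 in WT (edgeR adjusted p = 2.7e-07 and 2.5e-07). Without library a of WT at 22 °C the WT change was 4.56. nad9, a subunit of the peripheral arm, also with only unique windows, rose by 1.80 ± 0.34 in pif4 and 2.19 ± 0.34 in WT (edgeR adjusted p = 1.9e-04 and 2.2e-05). nad7, another peripheral arm subunit, rose by 3.22 ± 0.62 in pif4 and 2.78 ± 0.57 in WT (edgeR adjusted p = 2.8e-04 and 4.8e-04), on 184 reads over the 3 libraries in pif4 at 37 °C against 27 in pif4 at 22 °C, and 210 in WT at 37 °C against 79 in WT at 22 °C. It moved with single libraries, to 3.98 without library b and 2.50 without library c of pif4 at 22 °C, and to 3.45 without library a of WT at 22 °C.

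The Complex I genes nad1, nad2 and nad5 are encoded in pieces that are joined by trans-splicing, and each row counts 1 piece. Part C of nad5 rose by 2.66 ± 0.45 in pif4 and 3.03 ± 0.44 in WT, and part B of nad1 by 2.33 ± 0.44 in pif4 and 2.50 ± 0.42 in WT, all with an edgeR adjusted p of at most 1.8e-04. Without library a of WT at 22 °C the WT change of nad1 part B was 3.19. Part A of nad5, part C of nad1 and part B of nad2 were read less, and their calls were less steady. nad5 part A rose by 2.24 ± 0.77 in pif4 and 2.70 ± 0.75 in WT (edgeR adjusted p = 0.0216 and 0.0056). Its call in pif4 ended without library a (1.96) or b (2.11) of pif4 at 37 °C or library b (1.94) or c (2.20) of pif4 at 22 °C, and it ended in both genotypes with total counts and without the libraries lettered a (2.21 in pif4, 2.61 in WT). nad1 part C rose by 2.70 ± 0.94 in pif4 and 3.67 ± 0.90 in WT (edgeR adjusted p = 0.0226 and 0.0022). In pif4 its call ended without library a (2.54) or b (2.24) at 37 °C or, of the 22 °C libraries, a (2.32) or c (2.09), and with total counts, and it was 4.59 without library b at 22 °C; in WT it was 3.08 without library c at 22 °C. nad2 part B rose by 1.92 ± 0.58 in pif4 and 2.42 ± 0.53 in WT (edgeR adjusted p = 0.0093 and 7.6e-04), and its call in pif4 ended without library c of pif4 at 22 °C (1.69) and with total counts.

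nad4, a membrane arm subunit that shares every window with chromosome 2, was the Complex I row without a call. Its log2 change was 1.06 ± 0.45 in pif4 and 1.04 ± 0.45 in WT, with an edgeR adjusted p of 0.062 in each. It read 22.5, 19.6 and 15.5 CPM in pif4 at 37 °C against 15.8, 6.58 and 6.75 in pif4 at 22 °C, and 23.0, 22.5 and 26.1 in WT at 37 °C against 24.1, 8.54 and 5.12 in WT at 22 °C. Library a at 22 °C thus overlapped the hot libraries in both genotypes. Without library a of pif4 at 22 °C the pif4 change was 1.51 (edgeR adjusted p = 0.0119), and without library a of WT at 22 °C the WT change was 1.80 (edgeR adjusted p = 5.3e-04).

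ATP synthase, which makes ATP from the proton gradient, rose in 4 of 5 tested rows in pif4 and in 5 of 5 in WT, and in 3 and 4 with total counts. atp9, the subunit of the rotating membrane ring, read 50.8, 53.7 and 46.0 CPM in pif4 at 37 °C against 6.79, 4.02 and 2.47 in pif4 at 22 °C, and 71.4, 53.2 and 61.6 in WT at 37 °C against 10.8, 4.12 and 1.92 in WT at 22 °C. The groups did not overlap, with a log2 change of 3.65 ± 0.46 in pif4 and 3.73 ± 0.46 in WT (edgeR adjusted p = 1.2e-05 and 7.9e-06). The WT change was 4.35 without library a of WT at 22 °C. atp4, a subunit of the peripheral stalk with only unique windows, read 24.9, 18.3 and 11.3 CPM in pif4 at 37 °C against 2.42, 1.95 and 0.724 in pif4 at 22 °C, and 23.4, 26.7 and 19.7 in WT at 37 °C against 4.82, 3.42 and 1.87 in WT at 22 °C. It rose by 3.59 ± 0.45 in pif4 and 2.89 ± 0.41 in WT (edgeR adjusted p = 1.5e-06 and 6.5e-06).

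The proton channel subunit a is encoded by both atp6-1 and atp6-2, which share most of their sequence, so reads could be split between them. atp6-1 rose by 2.13 ± 0.38 in pif4 and 1.94 ± 0.37 in WT, and atp6-2 by 1.47 ± 0.32 in pif4 and 2.02 ± 0.32 in WT, with edgeR adjusted p between 2.6e-05 and 7.9e-04. With total counts the atp6-2 call in pif4 ended (0.45). atp1, the catalytic-head subunit alpha, shares all windows with chromosome 2 and changed by 1.04 ± 0.60 in pif4 (edgeR adjusted p = 0.158) and rose by 2.10 ± 0.62 in WT (edgeR adjusted p = 0.0078). The WT call ended without library a of WT at 37 °C (1.58) or library c of WT at 22 °C (1.64) and with total counts (1.09), and the change was 2.85 without library a of WT at 22 °C.

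Cytochrome c maturation genes encode the machinery that attaches haem to c-type cytochromes. ccmFN2, a part of the haem lyase, had 20, 30 and 30 reads in pif4 at 37 °C against 2, 0 and 8 in pif4 at 22 °C, and 15, 42 and 26 in WT at 37 °C against 1, 8 and 3 in WT at 22 °C. Its log2 change was 3.77 ± 0.75 in pif4 and 4.48 ± 0.74 in WT (edgeR adjusted p = 3.3e-04 and 4.8e-05). The pif4 change was 4.59 without library c of pif4 at 22 °C and the WT change 5.13 without library b of WT at 22 °C. ccmB, a haem transporter subunit with only unique windows, changed less, by 0.97 ± 0.34 in pif4 (edgeR adjusted p = 0.0223) and 0.73 ± 0.34 in WT (edgeR adjusted p = 0.0748), against -0.06 and -0.27 with total counts. Its pif4 call ended without library a (0.86) or b (0.79) of pif4 at 37 °C or library c (0.88) of pif4 at 22 °C, and without library a of WT at 22 °C the WT change was 1.21 (edgeR adjusted p = 0.0041).

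Ribosomal proteins of the organelle rose in 3 of 3 tested rows in both genotypes with TMM and in 1 of 3 with total counts. rpl16, of the large subunit, rose by 1.83 ± 0.40 in pif4 and 2.14 ± 0.40 in WT (edgeR adjusted p = 0.0015 and 4.5e-04), and was the row that kept its call with total counts, at 0.81 and 1.13. Its WT change was 2.76 without library a of WT at 22 °C. rpl2, also of the large subunit, rose by 0.97 ± 0.23 in pif4 and 1.39 ± 0.23 in WT (edgeR adjusted p = 0.0016 and 4.0e-05), against -0.06 and 0.37 with total counts. rps3, of the small subunit, rose by 1.21 ± 0.39 in pif4 and 1.34 ± 0.39 in WT (edgeR adjusted p = 0.0227 and 0.0134), against 0.21 and 0.34 with total counts. The pif4 call of rps3 ended without library a of pif4 at 37 °C (1.06) or library b (1.13) or c (0.93) of pif4 at 22 °C, and its WT call ended without library a of WT at 37 °C (1.13) or library b of WT at 22 °C (1.14).

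The 3 rRNA genes did not share one response. rrn18 rose by 0.90 ± 0.25 in pif4 and 1.26 ± 0.25 in WT (edgeR adjusted p = 0.0060 and 4.7e-04) with TMM, against -0.10 and 0.25 with total counts. rrn26 changed by 0.10 ± 0.28 in pif4 and 0.20 ± 0.28 in WT with no call (edgeR adjusted p = 0.785 and 0.569), and with total counts it fell by 0.90 in pif4 and by 0.81 in WT (edgeR adjusted p = 0.0016 and 0.0033). rrn5 had few reads, 33, 23 and 2 in pif4 at 37 °C against 3, 5 and 16 in pif4 at 22 °C, and 27, 20 and 11 in WT at 37 °C against 9, 12 and 6 in WT at 22 °C. In CPM its groups overlapped in both genotypes, and its log2 change was 2.20 ± 0.94 in pif4 (edgeR adjusted p = 0.0571) and 2.73 ± 0.95 in WT (edgeR adjusted p = 0.0222). The WT call ended without library a of WT at 37 °C (1.74) or library b (2.48) or c (2.16) of WT at 22 °C and with total counts, and the change was 3.58 without library a of WT at 22 °C; in pif4 a call appeared without library c of pif4 at 37 °C (2.75).

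Levels between genes can be set side by side per kilobase for the genes with unique windows. In pif4 at 37 °C cox1 stood at 661 ± 75.4 CPM per kilobase, against 328 ± 108 in pif4 at 22 °C, and in WT at 37 °C at 821 ± 63.0, against 425 ± 208 in WT at 22 °C (SD, n = 3 each). The next of these protein-coding genes was rps3, at 89.8 ± 17.2 in pif4 at 37 °C against 39.5 ± 18.9 in pif4 at 22 °C, and 100.1 ± 25.4 in WT at 37 °C against 40.2 ± 21.0 in WT at 22 °C. nad4L followed at 37 °C, at 63.0 ± 14.8 in pif4 and 83.7 ± 6.99 in WT, and its range overlapped that of rps3 in both genotypes. At 22 °C nad4L was at 3.80 ± 1.59 in pif4 and 6.89 ± 5.88 in WT, below the mean of ccmB, which was 14.0 ± 1.35 in pif4 and 18.5 ± 10.3 in WT. ccmB at 37 °C was at 27.2 ± 8.74 in pif4 and 29.0 ± 2.86 in WT, below nad4L in every library, so the order of these genes differed between the temperatures. Both long rRNA genes exceeded cox1 in each group, with rrn26 at 1950 ± 157 in pif4 at 37 °C and 1819 ± 805 in pif4 at 22 °C, while rrn5, at 32.0 ± 32.5 and 6.50 ± 1.54, was below it.

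The ORFs have no known role, and several had almost no reads at 22 °C. Of 14 tested ORFs, 12 rose in pif4 and 13 in WT, and 9 in each with total counts. ORF315 had 16, 21 and 12 reads in pif4 at 37 °C and 0 in the 3 pif4 libraries at 22 °C, and 15, 45 and 43 reads in WT at 37 °C against 0, 2 and 0 in WT at 22 °C. Against a floor of 3 reads over the group, it was at least 26.9-fold higher at 37 °C in pif4 (edgeR adjusted p = 4.6e-05). In WT the ratio of summed reads, scaled by library size, was 174, with an exact 95% interval of 46.9 to 1453 that covers counting error only (edgeR adjusted p = 4.9e-06). ORF110B had 15, 27 and 26 reads in pif4 at 37 °C against 3, 2 and 4 in pif4 at 22 °C, and 22, 38 and 39 in WT at 37 °C against 0, 4 and 0 in WT at 22 °C. Its log2 change was 3.46 ± 0.76 in pif4 and 6.25 ± 0.84 in WT (edgeR adjusted p = 8.5e-04 and 3.9e-06), and the WT value ranged from 5.50 without library c to 8.90 without library b of WT at 22 °C.

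Other ORFs had more reads. ORF240A read 58.3, 55.8 and 41.7 CPM in pif4 at 37 °C against 14.1, 5.72 and 4.46 in pif4 at 22 °C, and 98.6, 62.8 and 52.2 in WT at 37 °C against 13.8, 6.13 and 5.35 in WT at 22 °C. It rose by 2.82 ± 0.42 in pif4 and 3.20 ± 0.42 in WT (edgeR adjusted p = 6.1e-05 and 1.5e-05), with no overlap. ORF275 rose by 3.62 ± 0.57 in pif4 and 3.60 ± 0.54 in WT (edgeR adjusted p = 2.5e-05 and 1.6e-05). ORF157 read 58.8, 71.3 and 57.8 CPM in pif4 at 37 °C against 32.5, 38.1 and 33.2 in pif4 at 22 °C, and 57.4, 73.3 and 68.8 in WT at 37 °C against 39.9, 33.0 and 26.3 in WT at 22 °C. It rose by 0.86 ± 0.18 in pif4 and 1.03 ± 0.18 in WT (edgeR adjusted p = 5.1e-04 and 7.4e-05), against -0.18 and 0.02 with total counts. ORF107A, whose identifier follows that of rrn26, was the best-read ORF and had no call in either genotype, at 0.17 ± 0.79 in pif4 and 0.80 ± 0.80 in WT (edgeR adjusted p = 0.877 and 0.431), and -0.78 and -0.18 with total counts. Library a held 816 CPM of it in pif4 at 22 °C and 714 in WT at 22 °C, against at most 235 in the other 22 °C libraries. Without the libraries lettered a the change was 1.04 in pif4 and 1.07 in WT (edgeR adjusted p = 1.7e-04 and 1.2e-04).

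In the order of the ATMG identifiers, 2 runs of neighbouring rows with large changes were picked after their values were seen. Large changes also stood outside them: ORF315 lies beside ORF107A and rrn26, which had no call, and ccmFN2, atp9 and nad1 part C lie in neither run. From ORF110B (ATMG00630) through atp4, nad4L, ORF149 and ORF275 to ORF240A (ATMG00690), every tested row rose in both genotypes, by 1.90 to 4.20 in pif4 and 2.49 to 6.25 in WT. The same held from ORF121A (ATMG00130) through ORF167 and ORF116 to cox2 (ATMG00160), by 2.71 to 5.19 in pif4 and 3.77 to 4.74 in WT. The ORFs of the second run had few reads: ORF116 had 31 over the 3 libraries of pif4 at 37 °C against 1 in pif4 at 22 °C, and 30 in WT at 37 °C against 3 in WT at 22 °C. These ratios were 51.0 (exact 95% interval 8.50 to 2078) in pif4 and 33.7 (10.5 to 173) in WT, for counting error only. ORF167 lost its call in pif4 without library a (2.42) or b (2.23) of pif4 at 22 °C and with total counts (1.67), and was 6.97 without library c of pif4 at 22 °C. ORF121A had a ratio of 23.0 (5.81 to 200) in pif4. Single 22 °C libraries moved these fitted values: ORF116 lay at 4.31 to 7.04 in pif4 and 4.02 to 7.03 in WT without library c or b, ORF121A at 6.61 in pif4 without library c and 3.86 to 5.50 in WT without library b or c, and ORF167 in WT at 4.79 without library c. Whether neighbouring rows share transcripts cannot be read from counts per gene.

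**Figure D4:**
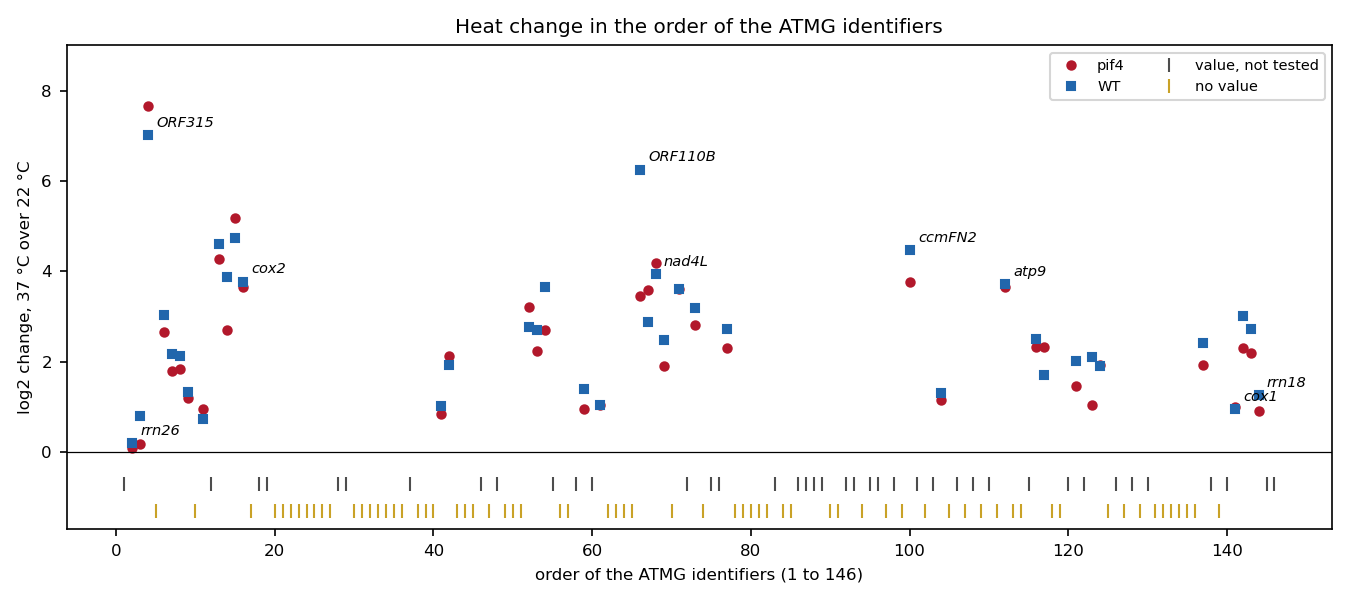
log2 change at 37 °C over 22 °C (y axis, TMM scaling) of the tested genes in the order of all ATMG identifiers (x axis), in pif4 (circles) and WT (squares); ticks mark rows with values that were not tested and rows without values. High values lie side by side around cox2 and around nad4L and also stand apart from these, at ORF315, ccmFN2 and atp9; rrn26 and cox1 stay low, and with total counts the median of all tested genes is lower by 1.03 in pif4 and 1.02 in WT.

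The 22 genes with too few reads for a test were 17 ORFs, ccmFC, ccmFN1, matR, mttB and nad3. ORF143 had 30 reads over the 3 libraries of pif4 at 37 °C and 0 in pif4 at 22 °C, and 16 in WT at 37 °C and 0 in WT at 22 °C. ccmFN1, a haem lyase gene, had 24 reads in pif4 at 37 °C against 9 in pif4 at 22 °C, and 11 in WT at 37 °C against 14 in WT at 22 °C. The number of mitochondrion-encoded genes with at least 1 read was 58 in pif4 at 37 °C and 53 in pif4 at 22 °C, and 60 in WT at 37 °C and 54 in WT at 22 °C. Depth differed between these groups, and the numbers were not set against those of all genes, so they describe these libraries only. ORF143 and ccmFN1 were picked after their values were seen.

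The second question the groups allow is whether pif4 changes these levels at either temperature. No mitochondrion-encoded gene was called between pif4 and WT. At 37 °C edgeR called 0 of 39 genes (2 at an unadjusted p below 0.05) and DESeq2 also 0, with 0.0533% of all tested genes called by edgeR (0.0373% higher, 0.016% lower). At 22 °C edgeR called 0 of 39 (2 at an unadjusted p below 0.05) and DESeq2 0, with 0.0852% of all tested genes called (0.0692% higher, 0.016% lower). Estimates at 37 °C ran from -1.47 to 0.10 on the log2 scale and were negative for 38 of 39 genes, with a median of -0.40 beside 0.04 over all tested genes; at 22 °C 26 of 39 were negative, with a median of -0.09. At 37 °C the CPM of 10 genes was lower in all 3 pif4 libraries than in all 3 WT libraries, and of 0 genes higher (4.23% and 7.48% of all tested genes). At 22 °C it was 1 gene higher and 0 lower (5.65% and 4.86%). Genes of 1 genome measured in the same libraries are not independent of each other. The total share of reads in mitochondrion-encoded genes was also lower in the pif4 libraries at 37 °C. That share overlapped with WT once other genes above 1% of a library were left out.

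nad2 part B had the lowest estimate at 37 °C, with 13, 32 and 14 reads in pif4 and 17, 47 and 65 in WT, a log2 difference of -1.47 ± 0.51 (edgeR adjusted p = 0.300). ORF315 read 3.84, 2.80 and 2.03 CPM in pif4 at 37 °C and 6.38, 7.85 and 7.68 in WT at 37 °C, with no overlap and a difference of -1.35 ± 0.64 (edgeR adjusted p = 0.465). cox1 differed by -0.31 ± 0.28 and cox2 by -0.38 ± 0.26 at 37 °C (edgeR adjusted p = 0.780 and 0.684). At 22 °C atp4 differed by -1.07 ± 0.47, with an unadjusted p of 0.0335 and an edgeR adjusted p of 1.

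**Figure D5:**
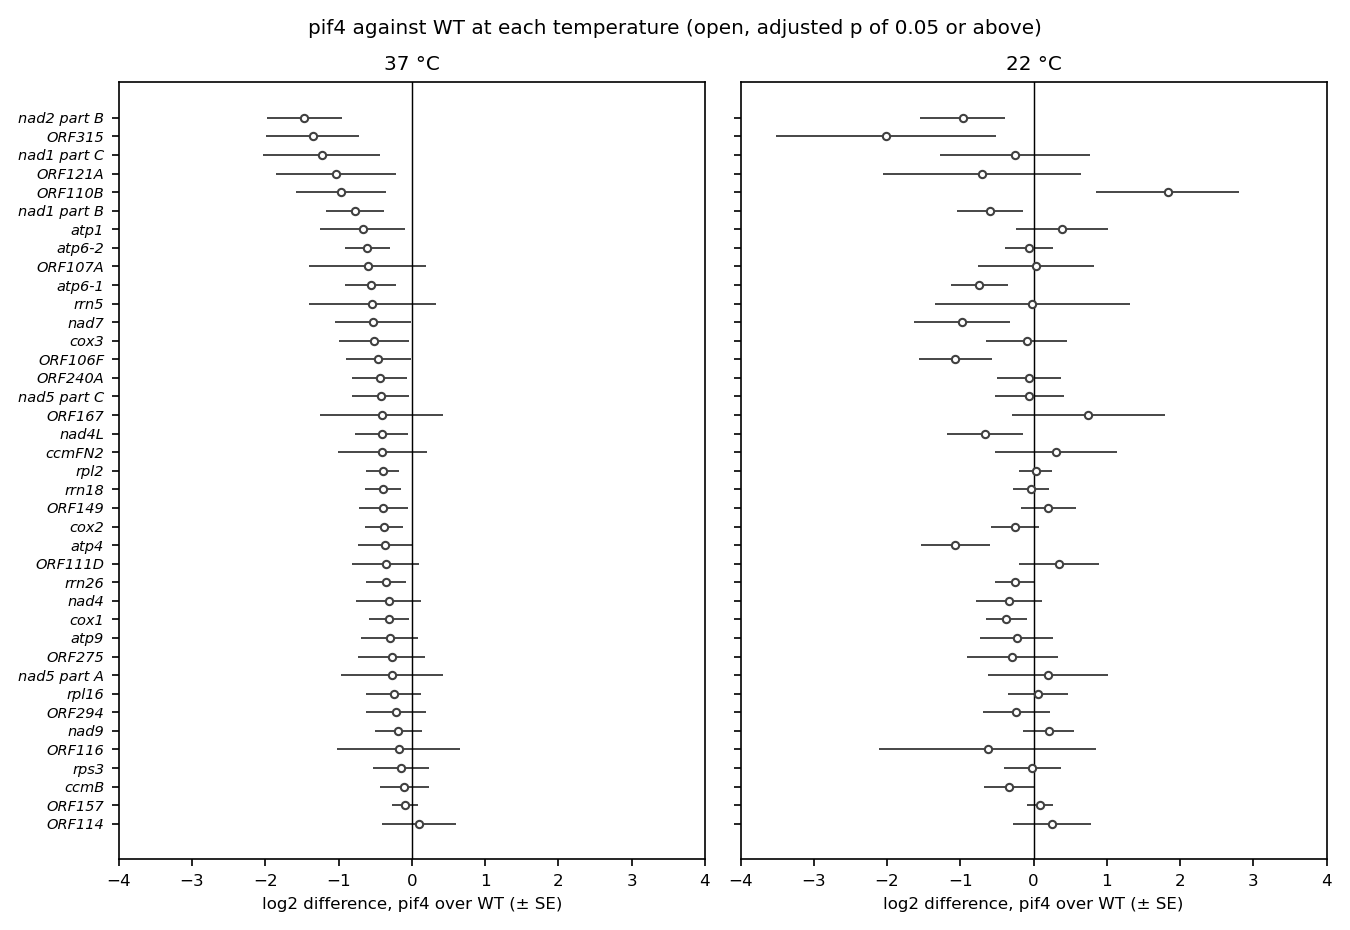
log2 difference of pif4 over WT (x axis, ± SE) for the 39 tested genes at 37 °C (left) and 22 °C (right), ordered by the value at 37 °C. Open points mark an edgeR adjusted p of 0.05 or above, which all 39 genes have at both temperatures; at 37 °C 38 points lie below 0.

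The heat change itself did not differ detectably between the genotypes. In the interaction of genotype and temperature, edgeR called 0 of 39 genes (1 at an unadjusted p below 0.05, ORF110B at -2.80 ± 1.15, edgeR adjusted p = 0.849), DESeq2 called 0, and edgeR called 0% of all tested genes. Across the 39 genes the heat changes in pif4 and in WT had a Pearson r of 0.915 and a Spearman rho of 0.937, which describes genes that share libraries and scaling and carries no test. The SE is derived from each estimate and its F statistic, so it is rough for genes with few reads. The largest SE in the interaction was 2.42 on the log2 scale, for ORF121A, which had 2 reads over pif4 at 22 °C. For ORF315 the SE in the interaction was 0.74, below the SE of 1.22 of its heat change in pif4. For cox2 the difference between the heat changes was -0.12 ± 0.42, for cox1 0.06 ± 0.39 and for nad4L 0.25 ± 0.62.

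Rows of the nuclear copy on chromosome 2 can be set beside a mitochondrial row with values for atp9, cox3, atp1 and nad1. The mitochondrial rows of cob, rpl5, rps4 and rps7 have none. AT2G07671, the copy of atp9, had 9 reads over the 12 libraries and was not tested, beside 1977 for atp9 itself. AT2G07785, the copy of nad1, had 179 reads. Loci whose annotated protein is at least 90% identical to that of a mitochondrial gene numbered 13, and 7 of them were tested. Of these 7, 6 rose in each genotype with TMM, and 4 in pif4 and 5 in WT with total counts. AT2G07727, the copy of cob, rose by 1.83 ± 0.30 in pif4 and 1.69 ± 0.29 in WT (edgeR adjusted p = 4.0e-05 and 7.8e-05). AT2G07687, the copy of cox3, rose by 2.94 ± 0.40 in pif4 and 2.93 ± 0.38 in WT (edgeR adjusted p = 4.0e-06 and 2.2e-06), beside 2.31 and 2.74 for cox3 itself. AT2G07698, the copy of atp1, rose by 2.71 ± 0.40 in pif4 and 3.08 ± 0.40 in WT (edgeR adjusted p = 1.3e-05 and 2.3e-06), beside 1.04 without a call in pif4 and 2.10 in WT for atp1 itself. Which genome these reads came from was not tested.

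Nuclear genes of the same complexes did not move as a block. Of 23 nuclear subunits of the respiratory chain and ATP synthase, 10 rose and 2 fell in pif4 and 9 rose and 2 fell in WT with TMM, with medians of 0.29 and 0.30, and with total counts 2 rose and 14 fell in pif4, and 3 rose and 15 fell in WT. CYTC-2, a cytochrome c, rose most of these, by 4.48 ± 0.23 in pif4 and 4.22 ± 0.22 in WT (edgeR adjusted p = 1.5e-12 and 2.2e-12), and by 3.44 and 3.19 with total counts. SDH1-1, the flavoprotein of succinate dehydrogenase, fell by 1.03 in pif4 and by 0.82 in WT (edgeR adjusted p = 9.8e-05 and 8.9e-04). Among 84 tested plastid-encoded genes, 25 rose and 10 fell in pif4 and 26 rose and 11 fell in WT with TMM, with medians of 0.30 and 0.25. With total counts 2 rose and 47 fell in pif4 and 3 rose and 45 fell in WT, with medians of -0.72 and -0.76. Beside these and the lists that follow, 25.6% of all tested genes rose and 24.1% fell in pif4 with TMM. In WT 25.5% rose and 26% fell. With total counts 9.35% rose and 62% fell in pif4, and 9.51% rose and 62% fell in WT.

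Of 4 nuclear genes that make or degrade mitochondrial RNA, 1 rose in pif4 and 3 in WT with TMM, and 0 rose and 1 fell in each genotype with total counts. AT5G15700, the RNA polymerase RPOTmp, rose by 1.59 ± 0.52 in pif4 and 1.54 ± 0.53 in WT (edgeR adjusted p = 0.0163 and 0.0203). Its call ended in pif4 without library b at 37 °C (1.17) or a (1.35) or b (1.38) at 22 °C, in WT without library c at 37 °C (1.36) or a (1.36) or c (1.40) at 22 °C, and in both with total counts (0.55 and 0.52) or without the libraries lettered a (1.33 and 1.45); without library c of pif4 at 22 °C it was 2.29 in pif4. MGP3, the polymerase RPOTm, changed by 0.59 ± 0.33 in pif4 and rose by 0.79 ± 0.33 in WT (edgeR adjusted p = 0.148 and 0.0491), a call that ended under most omissions of 1 library, at 0.47 to 0.89. AT5G14580, the mitochondrial polynucleotide phosphorylase that removes polyadenylated RNA, had 29, 40 and 28 reads in pif4 at 37 °C against 11, 30 and 45 in pif4 at 22 °C, and 15, 35 and 27 in WT at 37 °C against 6, 71 and 6 in WT at 22 °C. Its change was 0.90 ± 0.60 in pif4 and 1.68 ± 0.62 in WT (edgeR adjusted p = 0.225 and 0.0298). The WT call ended without library a (1.61) or b (1.62) of WT at 37 °C or library a (1.57) or c (1.10) of WT at 22 °C, and the change was 3.18 without library b of WT at 22 °C.

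Of 10 nuclear genes of the mitochondrial stress response, 8 rose in each genotype with TMM, and 6 rose and 1 fell with total counts. Only some of those that rose are named here. AOX1A, the alternative oxidase that bypasses Complexes III and IV, rose by 4.37 ± 0.19 in pif4 and 4.64 ± 0.19 in WT (edgeR adjusted p = 1.1e-13 and 4.9e-14). NAC13, a transcription factor of mitochondrial retrograde signalling, rose by 5.27 ± 0.22 in pif4 and 5.67 ± 0.22 in WT (edgeR adjusted p = 5.9e-14 and 2.2e-14). NDB2, an alternative NADH dehydrogenase, rose by 2.83 ± 0.17 in pif4 and 3.19 ± 0.17 in WT (edgeR adjusted p = 1.8e-11 and 3.0e-12). AOX1D, another alternative oxidase, had 2, 8 and 164 reads in pif4 at 37 °C against 16, 59 and 3 in pif4 at 22 °C, and 0 in all 6 WT libraries, with no call for heat (edgeR adjusted p = 0.528 in pif4); the estimate of 1.43 in pif4 was -2.16 without library c of pif4 at 37 °C. It had no call between pif4 and WT (edgeR adjusted p = 0.470 at 37 °C and 1 at 22 °C).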

How the data were processed

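The authors deposited 1 table of whole-number read counts per gene with a length-corrected value beside each count, per the file headers; the genome build is TAIR10 per the submitters' processing notes, while for aligner, counter and strand setting the sources used here give nothing. The counts of 12 libraries whose column names match WT or pif4 labels were analysed; 36 columns of values per library were not used, 24 of them from 12 libraries whose names match no single label. Gene names are those of the table. The members and lists were chosen with earlier results of these data known.

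One edgeR 4.0.16 fit (R 4.3.3) over the 12 libraries used filterByExpr, TMM scaling and robust quasi-likelihood tests on 18774 genes, with Benjamini-Hochberg adjustment over all of them and a threshold of 0.05. CPM are scaled by TMM; the TMM factor lay between 0.678 and 0.734 in hot libraries and between 1.30 and 1.50 in the others. The spread between libraries was 23.4% (biological coefficient of variation). The SE of a log2 change is its size divided by the square root of its F statistic, and is rough where reads are few. DESeq2 1.42.0, total counts, TMM without organelle genes, other filters, each library left out and a replicate block were alternatives. Named genes are the tested members of the role groups, the 10 members with the highest mean CPM and up to 8 called members with the largest changes in each heat comparison. From the other lists only some of the called genes are named, together with AOX1D, which had no call. Other members are said to be picked by value. Gene sequences are not printed. Comparisons with the PIF4-L lines were not analysed here. The result of 1 tissue marker is not reported here.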

Additional observations from a re-analysis of the deposited data

How the results depend on the processing

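The scaling mattered most. With total counts as library size the number of genes that rose was 21 in pif4 and 24 in WT, and 1 fell in each (0 with TMM). The heat change turned negative in pif4 for rrn26 (-0.90), ORF107A (-0.78), ccmB (-0.065), ORF157 (-0.18), rpl2 (-0.062) and rrn18 (-0.10), and in WT for rrn26 (-0.81), ORF107A (-0.18), ccmB (-0.27) and cox1 (-0.041). Requiring a mean of 5 CPM left fewer genes to test, with 23 risen in WT, and turned rrn26 in pif4 to -0.018. Counting only genes with at least 90% unique windows left 9 genes, with 7 risen in each genotype; this and the fit without the libraries lettered a were chosen after seeing the data. With 1 library left out, the number that rose was 29 to 37 in pif4 and 31 to 39 in WT, rrn26 ranged from -0.074 to 0.51 in pif4 and from -0.020 to 0.50 in WT, and ORF107A in pif4 from -0.20 to 1.36. Without genes above 1% of a library, the share of reads was 3.00% in pif4 at 37 °C and 3.08% in pif4 at 22 °C, and 3.94% in WT at 37 °C and 3.32% in WT at 22 °C; without the rRNA genes it was 0.159% and 0.157% in pif4 and 0.208% and 0.182% in WT, at 37 °C and 22 °C. DESeq2, TMM without organelle genes and no filter kept the counts within 1.5 times.

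With the letter as a replicate block 35 genes rose in pif4 and 38 in WT. Over all tested genes, same-letter libraries of different groups had a median correlation of deviations of 0.0691 (18 pairs, -0.0833 to 0.258). For other letters it was -0.033 (36 pairs, -0.159 to 0.138). These values pool all genes and letters, so they cannot tell whether the letter matters for mitochondrion-encoded genes. The main fit did not treat the letters as pairs. In each group library a had the lowest depth and the highest mitochondrial share. The planned fit of WT and pif4 alone is the fit reported, and the fits with PIF4-L lines were not run. The 3 libraries per group and the low reads of many ORFs limit what can be detected. Calls between pif4 and WT stayed at 0 of the tested mitochondrion-encoded genes under every alternative run.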
